A study of Zea mays with 50 samples.

Results

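The 4 ribosomal protein genes described here were chosen by name and table row: RPL10 (GRMZM2G088005), RPS27A (GRMZM2G431821), arpp2a-2 (GRMZM2G102891) and rps10 (GRMZM2G095511). They are 4 of the 30213 gene rows of a table that gives reads per kilobase of gene scaled to the size of the library (RPKM) in 50 RNA-seq libraries. Each library came from leaf protoplasts (leaf cells freed of their walls) of the maize inbred B73. The genes were picked with their levels in these libraries known, because of how they lay against the control, between cell preparations and along the columns of the table. Their values in those comparisons are therefore given as a description, without p-values, and tests are given only for other rows.

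The plants were B73 seedlings grown in constant darkness at 25 °C, and leaves of more than 10 seedlings, 10 to 12 days after germination, were taken for each protoplast preparation (prep). The study asked how candidate regulators of small RNAs of the anther change expression when made in leaf cells. The control carried p35S-GFP, a green fluorescent protein driven by the constitutive cauliflower mosaic virus 35S promoter, so the control cells also made a foreign protein. The 23 other constructs put a regulator fused to GFP behind the same promoter, with GFP at the N terminus except for ZFL2, which carried GFP at its C terminus. Preps 1 and 3 held GFP and 11 regulators (bHLH103, CSD4, DOF25, HSF2, NAC29, NAC119, OCL4, TCP23, ZFL2, ZHD5 and ZIM13), and preps 2 and 4 held GFP and 12 others (ABI5, bHLH97, DOF7, EREB50, EREB69, GBP15, MYB131, NAC25, OFP9, WRKY81, ZFL1 and ZHD4). Each regulator thus had 2 libraries and GFP had 4. The pair of EREB69 libraries was the deepest, with 28153231 and 29950351 reads, and the other 48 ranged from 6830505 to 11875644. In the GFP libraries the mesophyll marker C4ppdkZm1 (pyruvate, phosphate dikinase) averaged 126 ± 53.8 RPKM (SD, n = 4), while pep1 (the C4 phosphoenolpyruvate carboxylase) averaged 0.347 ± 0.0928, below the 1 RPKM filter, and bundle sheath, epidermal and vascular markers were present as well.

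Ribosomes translate messenger RNA and consist of a small and a large subunit, each built of ribosomal RNA and many proteins. Plants encode most of these proteins in small gene families whose transcripts tend to rise and fall together with growth, light and sugar supply. RPL10 joins the large subunit late in its assembly, near the site where peptide bonds form. The acidic P2 proteins, to which arpp2a-2 belongs by name, form with P1 and P0 the lateral stalk that recruits elongation factors. RPS27A is made as a fusion of ubiquitin with a small subunit protein, which are then cut apart, and RPS10 is a small subunit protein.

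The genes were expressed at different levels. On the RPKM scale, which corrects for length, RPL10 averaged 18.3 ± 5.31 over the 50 libraries (SD), RPS27A 13.1 ± 2.72, arpp2a-2 3.06 ± 0.683 and rps10 1.06 ± 0.460. A row was tested when 2 or more libraries reached 1 RPKM. Of the 28122 such rows, 76.0%, 68.4%, 35.0% and 13.3% lay below these averages, in that order. All 4 genes passed that filter, but rps10 reached 1 RPKM in 27 libraries only.

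The reads behind these values set what can be read from each gene. Whole read numbers could be recovered from the table. RPL10 had 143 to 910 reads per library, RPS27A 51 to 265, arpp2a-2 27 to 134 and rps10 2 to 27. Counting alone gives a relative SD of 6.08% for RPL10 at its mean, 10.4% for RPS27A, 14.0% for arpp2a-2 and 33.9% for rps10. Between regulators of 1 prep the RPL10 values varied 11.1 times as much (variance) as counting alone gives, those of RPS27A 3.67 times, those of arpp2a-2 2.19 times and those of rps10 1.21 times. The spread of rps10 was thus close to that of counting alone.

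**Figure D1:**
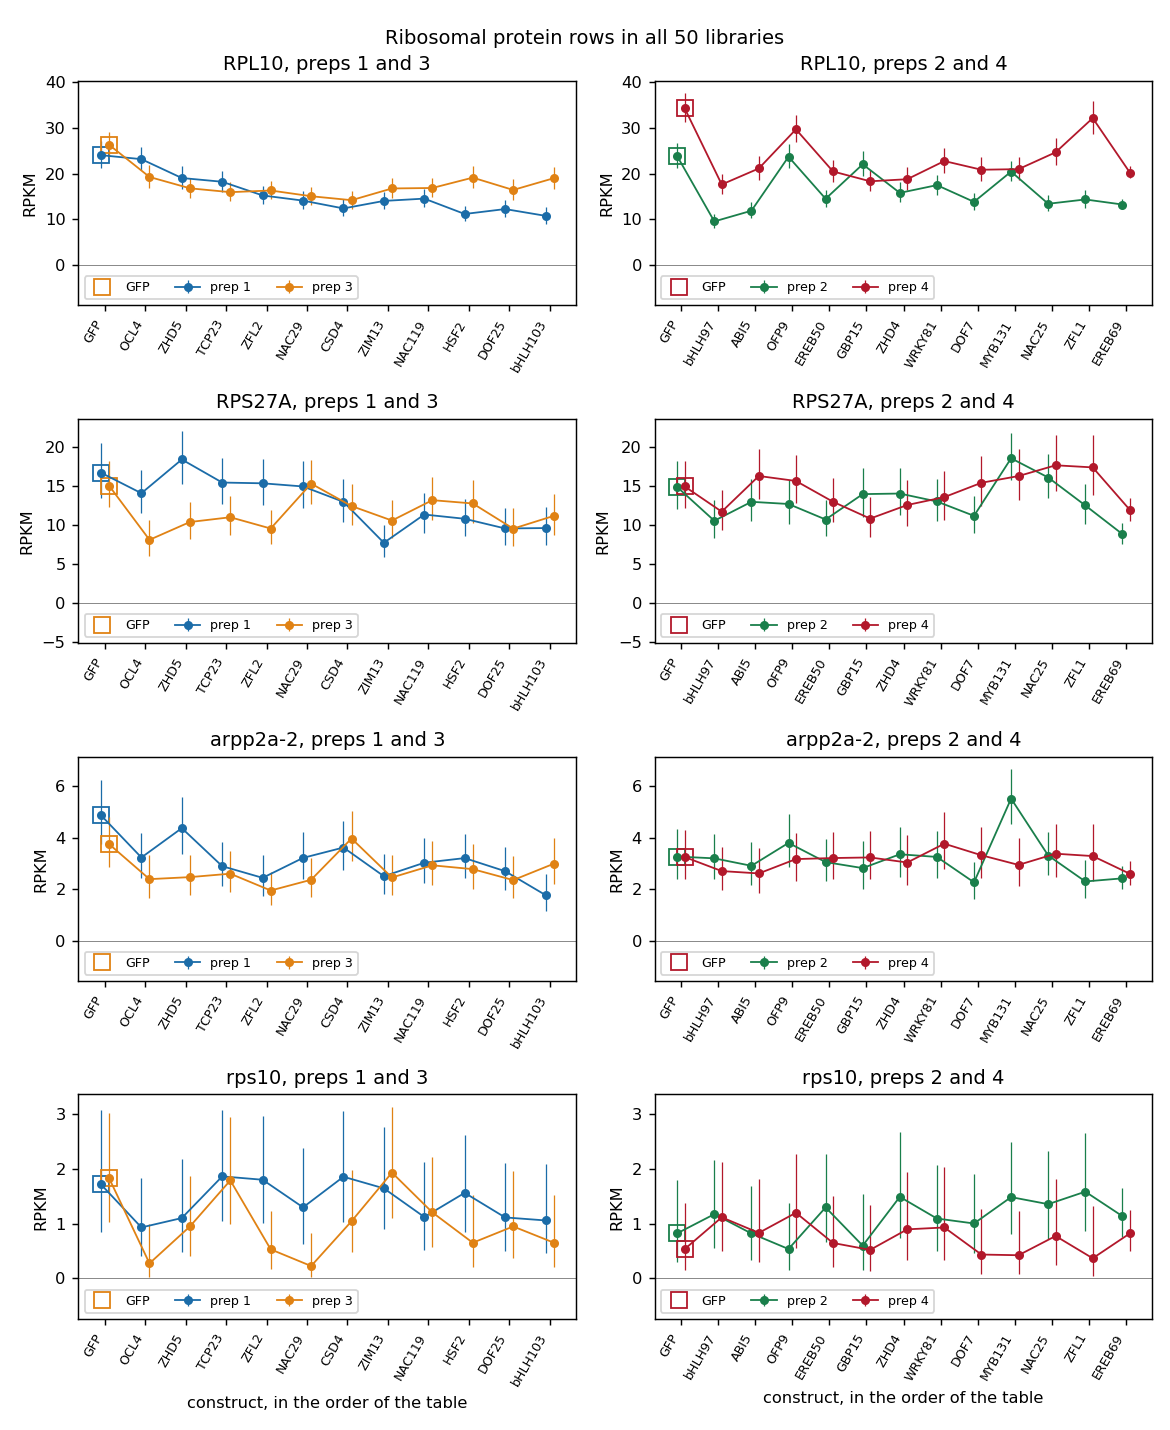
RPKM (vertical axis) of the 4 genes in each of the 50 libraries, with the constructs of a prep along the horizontal axis in the order of the table columns, lines joining libraries of 1 prep, error bars giving exact 95% Poisson intervals of the reads, and squares marking GFP. RPL10 was highest in the GFP library in each of the 4 preps, and in prep 1 the RPL10 and RPS27A values were lower in the later columns.

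RPL10 was higher in GFP than in every regulator library of the same prep. The 4 GFP libraries had 24.02 RPKM in prep 1, 23.8 in prep 2, 26.3 in prep 3 and 34.3 in prep 4. The regulator libraries of the same preps ranged from 10.8 to 23.1 (median 14.1, n = 11), from 9.53 to 23.7 (median 14.4, n = 12), from 14.2 to 19.3 (median 16.7, n = 11) and from 17.6 to 32.1 (median 20.9, n = 12). All 46 regulator libraries were therefore below GFP of their prep, although the ranges of different preps overlapped and 20 of 23 regulators had both libraries below both GFP libraries of their preps. Being highest in GFP in all 4 preps was rare: it held for 19 of the 28122 rows, or 0.0676%, and for none of the 32 other ribosomal protein rows. RPL10 was selected for this property, so the count is a description of the row. The GFP column also comes first in each prep of the table, so GFP and the first column cannot be told apart. In bulk libraries such as these, fewer cells of a type and less RNA per cell cannot be told apart either.

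The margin over GFP was narrow for some constructs. In prep 2 OFP9 had 23.7 RPKM against 23.8 in GFP, a gap of less than the counting error. In prep 1 OCL4 had 23.1 against 24.02, and in prep 4 ZFL1 had 32.1 against 34.3. In prep 3 the nearest regulator, OCL4, had 19.3 against 26.3.

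Ranked by the mean of their 2 libraries, the RPL10 levels ran from GFP of preps 2 and 4 at 29.0 ± 7.41 RPKM (SD, n = 2) down to CSD4 at 13.3 ± 1.27. OFP9 followed at 26.7 ± 4.24, then GFP of preps 1 and 3 at 25.2 ± 1.61, ZFL1 at 23.2 ± 12.6 and OCL4 at 21.2 ± 2.75. At the low end DOF25 was at 14.3 ± 2.95, bHLH97 at 13.6 ± 5.71 and CSD4 last. In the middle of the order lay MYB131 with 20.7 ± 0.382, GBP15 with 20.2 ± 2.63, WRKY81 with 20.1 ± 3.73, NAC25 with 19.0 ± 7.96 and ZHD5 with 17.9 ± 1.59. None of the 24 neighbouring pairs in this order differed by more than the larger of their SDs. Here and for the other genes each such SD is between libraries of 2 preps, so it also holds the difference between preps. The order mixes constructs of both pairs of preps.

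The fitted differences were taken from a linear model on log2(RPKM + 0.5) over all 50 libraries, with 1 mean for each construct and prep pair (limma). Averaged over regulators, RPL10 lay 0.67 log2 units below GFP in preps 1 and 3 (−0.67 ± 0.26, SE) and 0.62 below in preps 2 and 4 (−0.62 ± 0.25), and −0.65 ± 0.18 over both, which is 36.1% lower. The value of preps 2 and 4 rests on 2 control libraries: it was −0.37 without GFP of prep 4 and −0.88 without GFP of prep 2. Over all preps the means were 17.6 RPKM over 46 regulator libraries and 27.1 over 4 GFP libraries. Single regulators ranged from −1.11 ± 0.35 (bHLH97) to −0.11 ± 0.35 (OFP9), all 23 below 0. The regulators of a prep pair share the same 2 GFP libraries, so these differences are not separate from one another. RPL10 was chosen with them known, so the count is a description. Across the other constructs of preps 1 and 3, CSD4 stood at −0.90, DOF25 at −0.80, bHLH103 at −0.79, NAC29 at −0.77, HSF2 at −0.76, ZIM13 at −0.70, NAC119 at −0.67, ZFL2 at −0.66, TCP23 at −0.55, ZHD5 at −0.48 and OCL4 at −0.25.

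RPS27A was also lower in most regulator libraries, by less. GFP had 16.7 RPKM in prep 1, 14.9 in prep 2, 15.1 in prep 3 and 15.0 in prep 4, and 36 of 46 regulator libraries were below GFP of their prep. The rank of GFP was 2 of 12 in prep 1, 3 of 13 in prep 2, 2 of 12 in prep 3 and 7 of 13 in prep 4. The regulators ranged from 7.72 (ZIM13, prep 1) to 18.6 RPKM (MYB131, prep 2), with a median of 12.7 over 46 libraries, so the groups overlapped.

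The RPS27A difference from GFP was −0.42 ± 0.18 on the log2(RPKM + 0.5) scale in preps 1 and 3, −0.15 ± 0.18 in preps 2 and 4 and −0.28 ± 0.13 over both (12.9 against 15.4 RPKM). By construct it ran from −0.78 ± 0.25 for ZIM13 to 0.22 ± 0.25 for MYB131. In preps 1 and 3 all 11 regulators were below 0, in preps 2 and 4 it was 10 of 12, with MYB131 and NAC25 above. By level MYB131 was highest at 17.4 ± 1.61 RPKM (SD, n = 2), followed by NAC25 at 16.9 ± 1.11, GFP of preps 1 and 3 at 15.9 ± 1.18 and NAC29 at 15.1 ± 0.259. EREB69 at 10.4 ± 2.21, bHLH103 at 10.4 ± 1.10, DOF25 at 9.55 ± 0.0159 and ZIM13 at 9.15 ± 2.02 closed the order, in which none of 24 neighbouring pairs differed by more than the larger SD.

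The stalk gene arpp2a-2 lay further below GFP in preps 1 and 3 than in preps 2 and 4, a difference that was not tested. GFP had 4.88 RPKM in prep 1 and 3.76 in prep 3, against regulators at 1.77 to 4.38 (median 3.03, n = 11) and at 1.95 to 3.97 (median 2.47, n = 11), where CSD4 of prep 3 alone exceeded GFP of its prep. In preps 2 and 4 GFP had 3.27 and 3.25, inside the regulator ranges of 2.27 to 5.53 and 2.60 to 3.77. Over all preps 37 of 46 regulator libraries were below GFP of their prep.

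On the log2(RPKM + 0.5) scale arpp2a-2 differed from GFP by −0.54 ± 0.18 in preps 1 and 3, where all 11 regulators were below 0, and by −0.06 ± 0.18 in preps 2 and 4, where 8 of 12 were. Without the GFP library of prep 1 the first value was −0.38, and without that of prep 3 it was −0.71, so it rests on 2 control libraries. ZFL2 was lowest at −0.83 ± 0.24 (2.20 ± 0.349 RPKM, SD, n = 2) and MYB131 highest at 0.28 ± 0.24. The 2 MYB131 libraries differed, with 5.53 RPKM in prep 2 and 2.95 in prep 4. In the order of levels NAC25 (3.35 ± 0.0496) over GFP of preps 2 and 4 (3.26 ± 0.0129) was the 1 neighbouring pair of 24 with a gap above the larger SD, and both of these SDs were small against the 14.0% that counting gives.

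For rps10 the GFP libraries differed among themselves more than they differed from the regulators. They had 1.71 RPKM (11 reads) in prep 1, 0.822 (6 reads) in prep 2, 1.83 (15 reads) in prep 3 and 0.534 (4 reads) in prep 4, and the rank of GFP was 4 of 12, 10 of 13, 2 of 12 and 9 of 13. Only 25 of 46 regulator libraries were below GFP of their prep. The lowest value, NAC29 in prep 3, was 0.227 RPKM from 2 reads, with an exact 95% Poisson interval of 0.0274 to 0.818, which covers counting error only.

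The rps10 difference from GFP was −0.53 ± 0.32 in preps 1 and 3 and 0.25 ± 0.32 in preps 2 and 4 on the log2(RPKM + 0.5) scale, opposite in sign, and −0.14 ± 0.23 over both. Without GFP of prep 4 the value of preps 2 and 4 was 0.08, and without GFP of prep 2 it was 0.43. The lowest construct was OCL4 at −1.11 ± 0.44, from 8 and 2 reads, and the highest ZHD4 at 0.51 ± 0.44, from 11 and 6 reads. In preps 2 and 4 GBP15 alone of 12 regulators was below 0. TCP23 (1.82 ± 0.0518 RPKM, SD, n = 2) and ZIM13 (1.78 ± 0.203) had the highest levels and GBP15 (0.559 ± 0.0541) the lowest.

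For the whole table a call needed a Benjamini-Hochberg adjusted p below 0.05 and a log2 change of at least 1 (limma). Over all rows and all 23 comparisons together 0.208% of the tests gave a call. By regulator the share was 2.35% for MYB131, 1.22% for EREB69, 0.96% for NAC29, 0.064% for OCL4 and NAC25, 0.0178% for CSD4 and 0.0142% for NAC119. It was 0.0213% for HSF2, 0.0107% for DOF25, ZFL2, ZHD5, WRKY81 and ZFL1, 0.00711% for bHLH103, TCP23 and GBP15, 0.00356% for ZIM13, DOF7 and OFP9, and 0.0% for the other 4. The share of rows called was 0.0213% in the average over the regulators of preps 1 and 3, 0.0107% in preps 2 and 4 and 0.00711% over all preps, and no called row was lower in the regulators. By adjusted p alone 0.0284% of rows passed in preps 1 and 3, all higher, and over all preps 0.0178% were higher and 0.00356% lower. With the prep number as a block the calls rose from 6 to 41 rows in preps 1 and 3, from 3 to 6 in preps 2 and 4 and from 2 to 10 over all preps. None of the 32 other ribosomal protein rows described next was among them.

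**Figure D2:**
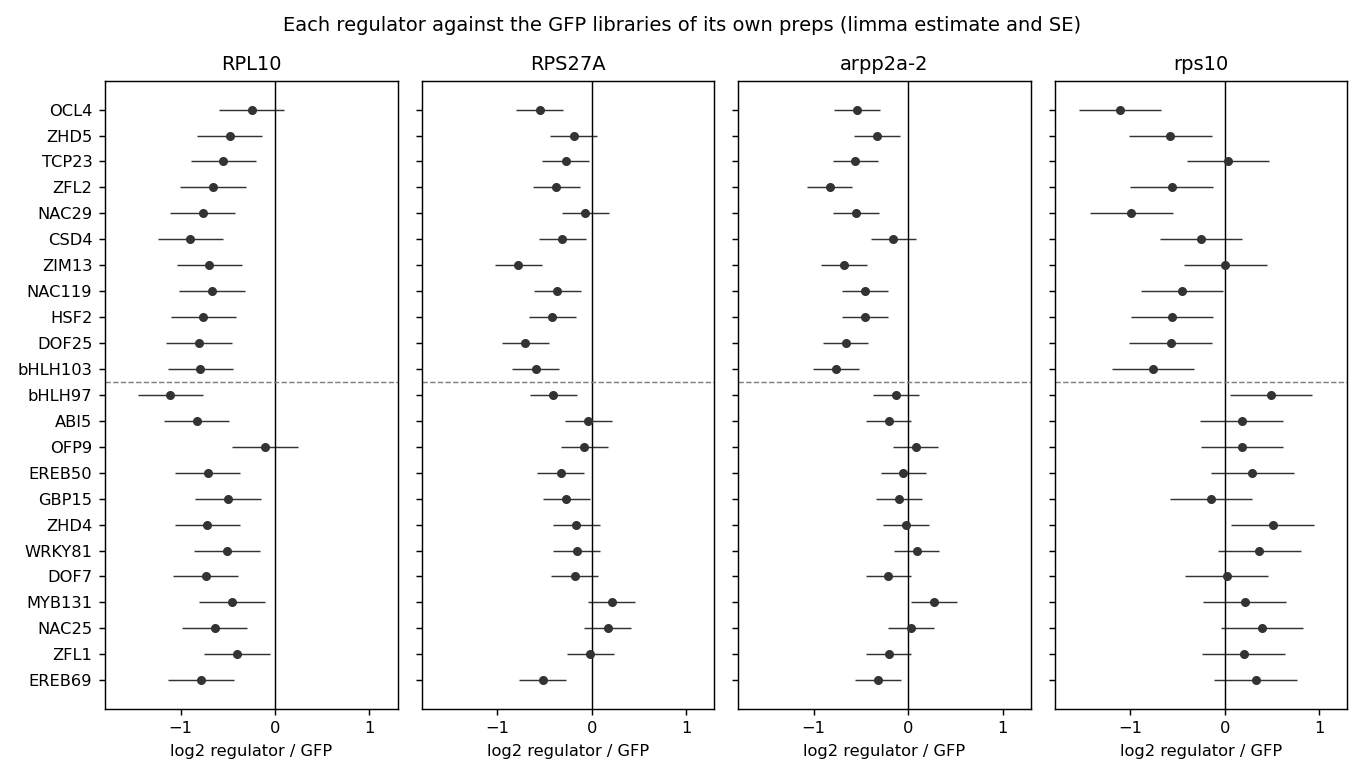
Difference of each regulator from the GFP libraries of its own 2 preps on the log2(RPKM + 0.5) scale (horizontal axis, limma estimate with SE) for the 4 genes, regulators in table order, those of preps 1 and 3 above the dashed line and those of preps 2 and 4 below it. All 23 RPL10 points lie left of 0, whereas rps10 lies left of 0 for 9 of 11 regulators above the line and for 1 of 12 below it.

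The other ribosomal protein rows lay below their GFP level too, by a small amount. The list holds 36 rows whose reference alias names a ribosomal protein, the 4 genes included; an alias does not give the compartment, so some rows may encode organellar proteins. Of the other 32 rows, 30 were below GFP in the average over all preps, with a median log2 difference of −0.21, against a median of 0.002 and 49.5% of rows below 0 over all 28122 rows. In preps 1 and 3 it was 28 of 32 (median −0.34) and in preps 2 and 4 29 of 32 (median −0.12). Single control libraries carried much of this: without GFP of prep 4 the count in preps 2 and 4 was 20 of 32 (median −0.06), without GFP of prep 2 the median was −0.20, and without GFP of prep 1 the median in preps 1 and 3 was −0.21. A regulator line with 1 slope for both preps of a pair, although preps 1 and 3 differed in slope, was extended to the column of GFP. Against it the median was −0.12 in preps 1 and 3, −0.18 in preps 2 and 4 and −0.13 over all. None passed the test by limma in any of these averages, 11 had an unadjusted p below 0.05 over all preps, and by limma-voom the count was also 0. With the RPL10 value of −0.65, the lowest of the 32 was at −0.39.

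The gene family members named in the reference put these values in context. The reference lists 2 rows for the RPL10 gene, the second being GRMZM2G087233, which averaged 932 RPKM, and a separate rpl10 row, GRMZM2G467086, averaged 11.5. How reads shared by near-identical copies were counted is not given in the sources used here, so the level of GRMZM2G088005 is uncertain to that extent. GRMZM2G087233 had 1277 RPKM in GFP of prep 1, 897 in prep 2, 1153 in prep 3 and 1086 in prep 4, and the rank of GFP was 1 of 12, 2 of 13, 1 of 12 and 5 of 13. Its difference from GFP over all preps was −0.29 ± 0.19 (adjusted p = 0.53, limma), and that of GRMZM2G467086 was −0.17 ± 0.11 (adjusted p = 0.52, limma).

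The 2 rows of RPL10 varied together across the libraries. Their Pearson correlation was 0.75 over 50 libraries and 0.83 with the prep means subtracted. The libraries share preps and are not independent, so this is a description. GRMZM2G088005 made up 1.33% to 3.16% of the RPKM of GRMZM2G087233, with a median of 1.91% in the 46 regulator libraries. In GFP the share was 1.88% in prep 1, 2.65% in prep 2, 2.28% in prep 3 and 3.16% in prep 4, which was the highest share of the prep in preps 3 and 4.

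**Figure D3:**
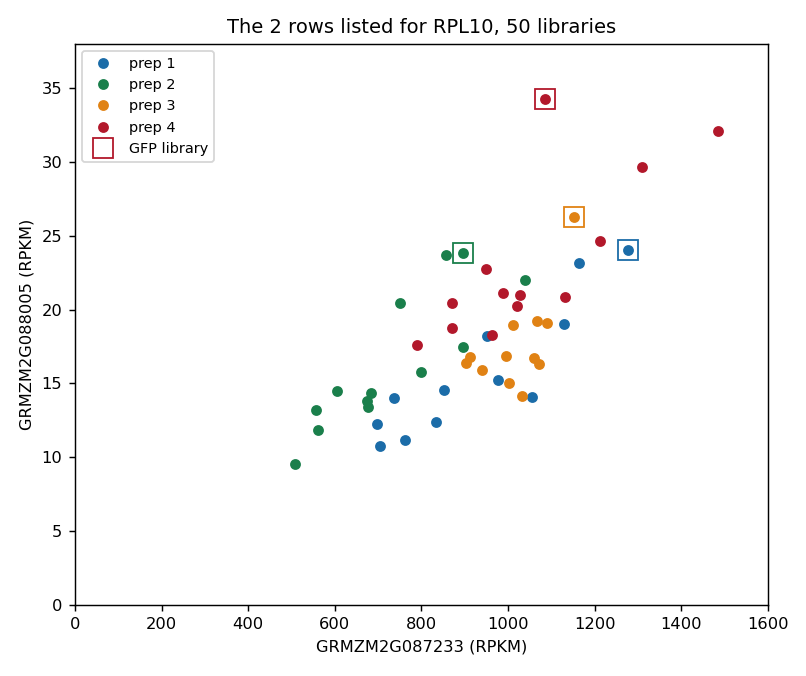
RPKM of GRMZM2G088005 (vertical axis) against that of GRMZM2G087233 (horizontal axis), the 2 rows listed for RPL10, in the 50 libraries, coloured by prep, with squares around the 4 GFP libraries. The rows rise together (Pearson r 0.75), and the GFP libraries of preps 3 and 4 have the highest ratio of their preps.

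Among the stalk proteins arpp2a-2 was a low member. arpp2b averaged 81.7 RPKM, arpp1a (a P1 protein) 21.3, rpp2a-4 16.4, arpp3 (a P3 protein) 15.6, arpp2a 12.2 and arpp2a-3 3.72. Over all preps 5 of these 6 rows were below GFP, namely rpp2a-4 at −0.31 ± 0.10, arpp1a at −0.30 ± 0.12, arpp3 at −0.30 ± 0.13, arpp2a at −0.27 ± 0.11 and arpp2a-3 at −0.03 ± 0.18, whereas arpp2b was at 0.10 ± 0.12. The limma adjusted p-values of these rows ran from 0.21 to 0.97, so none of them passed. GFP was highest in 3 of 4 preps for arpp2a and arpp3, a pattern that 0.996% of all rows showed in at least 3 preps and 3 of the 32 list rows did, RPS10 (GRMZM6G870163) with them. That RPS10 row, a separate gene in the reference, averaged 18.5 RPKM, and its difference from GFP was −0.25 ± 0.08 (adjusted p = 0.21, limma). RPS27A carries UBF9, a ubiquitin fusion name, as its other alias.

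Between preps the genes differed in direction. RPL10 was 0.50 ± 0.09 log2 units higher in prep 4 than in prep 2, with means of 23.2 ± 5.42 and 16.4 ± 4.64 RPKM (SD, n = 13) and 12 of 13 constructs higher in prep 4. Between prep 3 (17.7 ± 3.14) and prep 1 (15.7 ± 4.44, n = 12) the difference was 0.19 ± 0.09, with 9 of 12 constructs higher in prep 3. RPS27A was at 14.4 ± 2.27 in prep 4 against 13.1 ± 2.56 in prep 2 (0.14 ± 0.07) and at 11.6 ± 2.22 in prep 3 against 13.1 ± 3.29 in prep 1 (−0.15 ± 0.11).

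In prep 3 against prep 1 the other 2 genes were, like RPS27A, lower in the later prep. For arpp2a-2 prep 3 was below prep 1 in 10 of 12 constructs (−0.16 ± 0.10), and preps 4 and 2 were nearly equal (−0.01 ± 0.09). For rps10 the later prep was lower in both pairs, by −0.44 ± 0.14 in prep 3 (9 of 12 constructs, 1.00 ± 0.587 against 1.42 ± 0.350 RPKM) and by −0.38 ± 0.14 in prep 4 (11 of 13, 0.729 ± 0.266 against 1.10 ± 0.337). Each pair of preps carries the same constructs, and these differences hold the construct as a block.

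Of all rows, 0.139% were called for prep 3 against prep 1 and 0.775% for prep 4 against prep 2 by adjusted p below 0.05 with a log2 change of 1 or more. Without the size condition many rows differed: 17.9% of all rows were lower and 15.5% higher in prep 4 than in prep 2. Of the 32 other ribosomal protein rows, 17 were higher and 4 lower there (limma, adjusted p below 0.05), with a median of 0.19 against −0.005 over all rows. The RPL10 row GRMZM2G087233 was among the higher ones (0.54 ± 0.10, adjusted p = 0.00058), as were rps6-2 (0.39 ± 0.07, adjusted p = 0.00066) and rps12 (0.45 ± 0.12, adjusted p = 0.0073), both named after small subunit proteins. The stalk row arpp2b was lower in prep 4 in all 13 constructs (−0.37 ± 0.04, adjusted p = 2.7e-05), with rpl19 (GRMZM2G171444), rpl29 and rpl35A. Without each library in turn the count of higher rows stayed between 13 and 19, and without both EREB69 libraries it was 13.

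In prep 3 against prep 1, where 6.46% of all rows were lower and 6.19% higher by adjusted p alone, 4 of the 32 rows were lower and none higher: rps12 (−0.52 ± 0.11, adjusted p = 0.011), rpl17 (−0.32 ± 0.07, adjusted p = 0.011), rpl10 GRMZM2G467086 (−0.26 ± 0.05, adjusted p = 0.0080) and arpp2b (−0.18 ± 0.06, adjusted p = 0.050). By limma-voom 8 were lower, and without the construct as a block 2, settings for which the share of all rows is not given here. These rows are named because the counts are small or their sizes stood out, after their values were seen.

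Along the columns of the table the RPL10 values were lower toward the end in prep 1. In prep 1 the regulators had, in table order from OCL4 to bHLH103, 23.1, 19.0, 18.2, 15.2, 14.1, 12.4, 14.0, 14.5, 11.2, 12.2 and 10.8 RPKM. The first 4 averaged 18.9 ± 3.27 and the last 4 averaged 12.2 ± 1.69 (SD). In prep 3 the same constructs had 19.3, 16.8, 15.9, 16.3, 15.0, 14.2, 16.7, 16.8, 19.1, 16.4 and 19.0 RPKM, with 17.1 ± 1.501 for the first 4 and 17.8 ± 1.41 for the last 4. The highest RPL10 values of prep 1 were thus in its first columns, while prep 3 had its lowest values in the middle.

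A line through the regulators of a prep, given as the change from the first to the last regulator column on the log2(RPKM + 0.5) scale, was −0.91 ± 0.14 (SE) for RPL10 in prep 1 and 0.07 ± 0.14 in prep 3. The difference between the 2 lines was 0.98 ± 0.19. The rule with the size condition called 3.98% of rows for the line of prep 1, 2.25% for the difference of the lines, 0.0178% for the joint line of preps 2 and 4 and 0.0% within preps 2, 3 and 4. Leaving out each library of prep 1 in turn gave −0.97 to −0.78. In preps 2 and 4 the changes were 0.09 ± 0.28 and 0.26 ± 0.28, and without bHLH97 of prep 2 the former was −0.28. The EREB69 libraries of preps 2 and 4 stand in table columns 49 and 50, after the other columns of prep 4. They were given the last place, 13, of their preps, so these lines end at libraries apart from the run of columns. The sources used here do not say whether the columns follow an order of handling, and GFP was left out of these lines.

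RPS27A values were lower toward the end of prep 1 as well. In prep 1 its values in table order were 14.1, 18.4, 15.5, 15.4, 15.0, 12.98, 7.72, 11.4, 10.8, 9.56 and 9.62 RPKM. The first 4 averaged 15.8 ± 1.84 and the last 4 averaged 10.3 ± 0.890 (SD). In prep 3 the first 4 averaged 9.76 ± 1.26 and the last 4 averaged 11.7 ± 1.67. The line changed by −0.87 ± 0.22 in prep 1, 0.25 ± 0.22 in prep 3, 0.08 ± 0.23 in prep 2 and 0.21 ± 0.23 in prep 4. Prep 2 depended on EREB69, whose column stands apart from the others of its prep: without it the change was 0.40.

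For arpp2a-2 the change was −0.49 ± 0.23 in prep 1, from 3.24 ± 0.826 RPKM in the first 4 to 2.68 ± 0.640 in the last 4, and without bHLH103, the last column, it was −0.26. It was 0.22 ± 0.23 in prep 3, −0.17 ± 0.23 in prep 2 and 0.09 ± 0.23 in prep 4. For rps10 prep 1 gave −0.06 ± 0.42 and prep 3 0.28 ± 0.42, and preps 2 and 4 gave 0.51 ± 0.28 and −0.52 ± 0.28, opposite in sign. The SE of rps10 exceeded the change in preps 1 and 3.

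**Figure D4:**
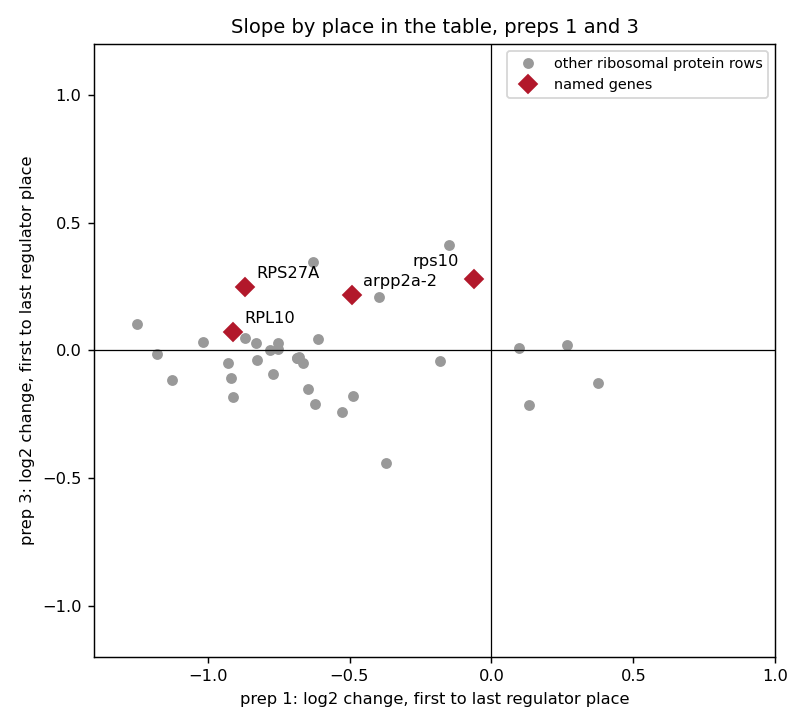
Change from the first to the last regulator column on the log2(RPKM + 0.5) scale in prep 1 (horizontal axis) and prep 3 (vertical axis) for the 4 genes (red diamonds) and the 32 other ribosomal protein rows (grey points). Most points lie left of 0 in prep 1 (median of the grey points −0.68) and spread around 0 in prep 3 (median −0.03).

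Most other ribosomal protein rows fell along prep 1. Of the 32 other rows, 28 had a negative change in prep 1 with a median of −0.68, against −0.005 over all rows. By limma 22 fell and 1 rose (adjusted p below 0.05), where 7.94% of all rows fell and 8.5% rose. The rows that fell included the small subunit rows rps24 (−1.25 ± 0.22, adjusted p = 0.00078), rps4 GRMZM2G035017 (−0.93 ± 0.11, adjusted p = 3.5e-05) and rps6-2 (−0.83 ± 0.09, adjusted p = 2.2e-05), the large subunit rows rpl39 (−1.18 ± 0.25, adjusted p = 0.0030) and rpl35 (−1.12 ± 0.15, adjusted p = 7.6e-05), and the stalk rows arpp3 (−1.02 ± 0.14, adjusted p = 0.00010) and arpp1a (−0.92 ± 0.14, adjusted p = 0.00019). The row that rose was arpp2b (0.37 ± 0.10, adjusted p = 0.017). RPL10 GRMZM2G087233 fell by 0.75 on the log2 scale (SE 0.13, adjusted p = 0.00052), whereas RPS10 GRMZM6G870163 changed by −0.15 ± 0.12 (adjusted p = 0.44). Leaving out each library in turn left 20 to 23 rows that fell. The list rows varied together with 2 of the chosen genes. With the prep means subtracted their median correlation was 0.60 with RPL10 and 0.60 with RPS27A. Slope tests of these rows are therefore not separate from the choice of those genes.

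In prep 3 none of the 32 rows passed by limma (median −0.03), and 2 of the 32 had an unadjusted p below 0.05; limma-voom also passed none of the 32. The difference between the lines of preps 3 and 1 was itself tested: it was positive for 15 of the 32 rows and negative for none (limma, adjusted p below 0.05), where 2.23% of all rows were positive and 2.44% negative. Among them were rps6-2 (0.86 ± 0.13, adjusted p = 0.0021) and GRMZM2G087233 (0.76 ± 0.18, adjusted p = 0.021). As in prep 1, tests of these list rows are not separate from the choice of RPL10 and RPS27A. The count was 12 to 17 when each library was left out and 18 by limma-voom, settings for which the share of all rows is not given here. With 1 joint line for preps 1 and 3, 6 of the 32 rows fell and none rose (median −0.38), where 0.907% of all rows fell; the count was 0 without OCL4, ZHD5, HSF2, DOF25 or bHLH103 of prep 1, 1 without ZFL2 of prep 1, and 2 without NAC119 of prep 1 or DOF25 of prep 3. It was 10 without TCP23, 13 without bHLH103 and 15 without ZHD5 of prep 3. The joint line and the test of the difference between the lines treated the 2 libraries of a construct as independent. In preps 2 and 4 none of the 32 rows passed by limma or limma-voom within either prep; 2 in prep 2 and 0 in prep 4 had an unadjusted p below 0.05.

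Of the 7 translation factor rows 5 fell in prep 1 by adjusted p below 0.05 (limma) and none rose, where 7.94% of all rows fell and 8.5% rose. Those that fell included EF1-A (elongation factor, −0.64 ± 0.09, adjusted p = 0.00014) and eif3 (an initiation factor, −0.69 ± 0.13, adjusted p = 0.00092), with eif5a at 0.07 ± 0.09 (adjusted p = 0.69). The ubiquitin row MUB6 was at −0.33 ± 0.23 (adjusted p = 0.36, limma). The row nuc rose by 1.12 ± 0.27 (adjusted p = 0.0065, limma). It was the single row whose alias matched a search for ribosome biogenesis names, and without a product name its function is not known here.

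Marker sums of cell types changed with the table order of prep 1 as well. The summed level of 5 vascular marker rows was 185 ± 25.6 RPKM in its first 4 regulators and 448 ± 102 in its last 4 (SD), that of 3 bundle sheath rows 26.8 ± 5.39 and 40.2 ± 7.14, that of 7 mesophyll rows 134 ± 15.5 and 180 ± 12.0, and that of 7 epidermal rows without ocl4 58.3 ± 1.25 and 53.5 ± 3.21. In prep 3 the vascular sum was 482 ± 106 in the first 4 and 335 ± 70.3 in the last 4. At 1 RPKM or more in GFP stood 4 of the 5 vascular markers, 3 of 3 bundle sheath markers, 3 of 7 mesophyll markers and 5 of 8 epidermal markers, ocl4 being at 0. Of the vascular rows lac3 averaged 271 ± 88.0 RPKM in GFP (SD, n = 4) and LAC1 GRMZM5G842071 48.3 ± 13.6, while the next, sut1, averaged 2.32. Of the mesophyll rows C4ppdkZm1 averaged 126 ± 53.8 and the next, csu374, 21.8 ± 5.30. In GFP these 2 sums thus mainly reflect lac3 and C4ppdkZm1. Over all libraries the vascular sum was 216 to 442 RPKM in GFP and 151 to 665 in the regulators. The part of these markers in the fall of the ribosomal protein rows was not tested. GFP had a vascular sum of 216 RPKM in prep 1, 442 in prep 2, 367 in prep 3 and 272 in prep 4, and RPL10 was highest in GFP in each of these preps. The mesophyll sum of GFP, 1 library a prep, was below the means of the first 4 and of the last 4 regulators in every prep. It was 129.8 RPKM in GFP of prep 1 against 134 ± 15.5 and 180 ± 12.0 (SD). In prep 2 it was 264 against 332 ± 111 and 366 ± 142. In prep 3 it was 123 against 199.5 ± 4.53 and 169.7 ± 6.46, and in prep 4 it was 158 against 240.1 ± 57.9 and 241 ± 91.4. The gap was within 1 SD for the first 4 of prep 1, both groups of prep 2 and the last 4 of prep 4. The part of the mesophyll markers in the differences from GFP was not tested.

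The comparison with GFP was also made against the place of its column. For this, 1 slope was fitted through the regulators of both preps of a pair and extended to the place of GFP. The RPL10 difference in preps 1 and 3 was then −0.41 ± 0.22 in place of −0.67, and that of RPS27A −0.23 ± 0.22 in place of −0.42. The lines of preps 1 and 3 differed, at −0.91 and 0.07 for RPL10 and −0.87 and 0.25 for RPS27A. The shared slope lies between them, so these values are no correction for place within either prep. For preps 2 and 4 the RPL10 value was −0.73 ± 0.22 in place of −0.62. For arpp2a-2 in preps 1 and 3 it was −0.46 ± 0.21.

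Across all 50 libraries RPS27A, RPL10 and arpp2a-2 were positively correlated with one another, and rps10 was negatively correlated with RPL10. The Pearson correlation was 0.61 between RPS27A and arpp2a-2, 0.54 between RPL10 and RPS27A and 0.37 between RPL10 and arpp2a-2, while rps10 had 0.16 with arpp2a-2, −0.03 with RPS27A and −0.36 with RPL10. With the prep means subtracted the value for rps10 and RPL10 was −0.12 and that for RPL10 and arpp2a-2 was 0.46. The median correlation with the other 35 ribosomal protein rows was 0.58 for RPS27A, 0.54 for RPL10, 0.46 for arpp2a-2 and −0.001 for rps10, against medians between −0.004 and 0.004 over all rows. The libraries share preps and depth, and counting noise lowers the values of rps10 and arpp2a-2.

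Among the 10667 rows averaging at least 10 RPKM, the row most like RPL10 over the 50 libraries was GRMZM2G176499 (Pearson r 0.88), and with the prep means subtracted GRMZM2G143771 (0.86). The row most like RPS27A was GRMZM2G150058 (0.82), and with the prep means subtracted it was rps6-2 (0.83), a ribosomal protein row. The row most like arpp2a-2 was GRMZM2G007300 (0.70, and 0.69 with the prep means subtracted). For rps10 the highest value was 0.61, for GRMZM2G329040, and a different row, GRMZM2G024733, came first with the prep means subtracted (0.61).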

How the data were processed

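Per the labels, RNA was extracted with TRI reagent and libraries were made with a directional poly(A) kit. Per the submitters' processing notes, HISAT2 2.1.0, featureCounts of Subread 1.6.3 and edgeR 3.20.9 were used on B73 RefGen_v3. The authors deposited RPKM, reads per kilobase scaled to library size; the strand setting and the treatment of reads with several positions are not given in the sources used here. No value column was left unused.

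Whole reads were recovered from the steps of the RPKM values for 100% of values (30213 of 30213 rows, tolerance 0.05 reads), and used for depth, Poisson intervals and limma-voom. The main test was limma 3.58.1 (R 4.3.3) with a trended prior on log2(RPKM + 0.5), for the 28122 rows that reached 1 RPKM in 2 or more libraries, with Benjamini-Hochberg adjustment over all of them. Fold changes on this scale understate the change of low rows. Regulators were compared with GFP in 1 model of 25 groups, preps with the construct as a block, and slopes over regulators with prep as a covariate. The replicate number in the labels is the prep number, a shared batch, so the numbers pair the libraries. As a check, deviations from the construct means of libraries of the same prep correlated with a median of 0.13 (−0.21 to 0.50) over 66 pairs of constructs in preps 1 and 3, and 0.25 (−0.05 to 0.47) over 78 pairs in preps 2 and 4. In the comparisons with GFP p-values measure the spread between the 2 preps of a construct. Between preps and for slopes within a prep they measure the spread between constructs, with 1 prep a side, so they do not say how other preps would differ. The joint lines of 2 preps and the differences of slopes between preps held no term for construct. Their p-values thus treat the 2 libraries of a construct as independent.

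The model was tested on simulated data with known changes. Lists were made from aliases of a RefSeq table of the assembly Zm-B73-REFERENCE-NAM-5.0, with 14595 row IDs matched and 5212 named; no coordinates of it are used, since the build differs. It held no product names or sequences, so planned lists of organellar ribosomal proteins and of paralogs by protein identity were not made and no sequence is printed. The 4 genes and the lists were chosen with earlier results of these data known. Named rows are the 4 genes, up to 4 called rows of each list (none was called in the comparisons with GFP or between preps), the rows most like each gene (from the 5 with the highest correlation), and, chosen after seeing the values or by shared name, the others. Slopes within a prep, the difference of slopes, and limma-voom or no filter for the 4 genes were added after seeing the data.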

Additional observations from a re-analysis of the deposited data

Results flagged for a closer look

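For RPS27A the GFP library of prep 1, at 16.7 RPKM, stood apart from the other 3, which lay between 14.9 and 15.1. The gap was 0.904 of the range of the 4 GFP libraries. It lay within counting error: the exact 95% Poisson interval of the 93 reads in prep 1, 13.5 to 20.5 RPKM, covered the other 3 values. The same library was apart for rpp2a-4, with 24.01 RPKM against 18.1 to 18.9 (0.87 of the range). For arpp2b the GFP library of prep 2 was apart, with 96.7 RPKM against 68.5 to 71.8 (0.882 of the range). Chance flags about 1 in 20 such groups.

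Between preps 3 and 1 the change along the table columns differed for 3 named rows that are not among the 4 chosen rows. The limma test of the difference of the slopes, used here, held no term for construct. GRMZM2G087233 is listed for the same gene as the chosen RPL10 row, so its test is not separate from that choice. The list rows as a set varied together with RPL10 and RPS27A, so the tests of arpp1a and arpp3 are not fully separate from it either. The difference was 0.758 ± 0.18 log2 units (SE) for RPL10 GRMZM2G087233 (adjusted p = 0.021), 0.807 ± 0.20 for arpp1a (adjusted p = 0.022) and 1.05 ± 0.20 for arpp3 (adjusted p = 0.0063). Each fell in prep 1 by adjusted p and passed no test in prep 3.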

How the results depend on the processing

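The values of the 4 genes were recomputed with pseudocounts of 0.1 and 1, without the filter, with median-ratio rescaling, with limma-voom, with the replicate block added or removed, with GFP included in the slopes, against the line by place, and without both EREB69 libraries, in all 284 values, of which 282 moved by less than the SD of the row. The other 2 were the RPS27A slopes without both EREB69 libraries, 0.41 in preps 2 and 4 together (0.14 with them) and 0.40 in prep 2. Leaving out 1 library gave arpp2a-2 slopes of −0.58 to −0.26 in prep 1, RPS27A slopes of −0.055 to 0.40 and RPL10 slopes of −0.28 to 0.30 in prep 2. The RPL10 difference from GFP over all preps ranged from −0.77 to −0.52, and that of preps 2 and 4 from −0.88 (without GFP of prep 2) to −0.37 (without GFP of prep 4).

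With the prep number as replicate block, estimates of the differences from GFP were the same and no call among the 32 other list rows changed, but the rows called rose from 6 to 41 in preps 1 and 3, from 3 to 6 in preps 2 and 4 and from 2 to 10 over all preps. Without the construct as block, 14 rather than 17 of the 32 other list rows were higher in prep 4.

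With adjusted p alone, calls in the 36-row list, the 4 genes included, rose from 0 to 4 for prep 3 against prep 1. They rose from 0 to 6 for the slope of preps 1 and 3 and from 0 to 23 for prep 4 against prep 2. For the slope of prep 1 they rose from 4 to 25. There limma-voom with the size rule gave 7, and leaving out 1 library gave 3 to 6. The 4 genes were chosen on these comparisons, so counts that include them are a description and no test. In the 32 other rows 4 were lower and 17 higher in prep 4, where 33.4% of all rows passed. Of these 32 rows, 22 fell and 1 rose along prep 1, where 16.4% of all rows passed. Among the 32 rows the 6 of the slope of preps 1 and 3 became 0 without any of 5 libraries of prep 1. The count was 15 without ZHD5 of prep 3 and 22 with GFP included. Shares of all rows by adjusted p alone are given for the main fit only, so counts under other settings have no such share beside them. For the whole table limma-voom called 0 rows in the comparison with GFP of preps 1 and 3 and of preps 2 and 4 (6 and 3 by limma), 116 and 445 rows between preps against 39 and 218, 134 against 67 for the slope of preps 1 and 3, 495 against 5 for that of preps 2 and 4, and 255, 2 and 68 against 0 within preps 2, 3 and 4. The causes were not tested. Depth limits rps10 most, with 2 to 27 reads a library.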
